A study of Mus musculus and Ictidomys tridecemlineatus with 36 samples.

Results

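The genes examined were 8 basic helix-loop-helix (bHLH) transcription factors of the proneural and neuronal-differentiation class, *Atoh7*, *Neurog2*, *Neurod2*, *Neurod4*, *Neurod6*, *Olig2*, *Bhlhe22*, and *Ptf1a*, out of 21938 protein-coding genes of the mouse annotation. They were picked by name as family members that act in retinal neurogenesis, and *Neurod1*, whose protein was itself profiled, was left out. All peaks within 1 kb of an annotated transcription start site (TSS) of these genes, and all peaks in the gene body plus 50 kb on each side, were taken from 5 CUT&RUN peak lists of postnatal day 2 (P2) mouse retina. In CUT&RUN, a nuclease tethered to an antibody cuts the DNA around a histone mark or a bound protein, and the fragments set free are sequenced.

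The study compared developing retina of the 13-lined ground squirrel with that of mouse, and its series holds 36 libraries, of which 20 are from mouse. The mouse libraries comprise 2 each for H3K4me3, H3K27ac, H3K4me1, and the IgG control, 4 for Neurod1, and 8 for Otx2, in which R&D Systems and Atlas antibodies were combined. No mutant or treatment is named for the mouse retinas, their strain is not given in the sources used here, and each of 2 biological replicates pooled retinas of 3 individuals. The squirrel lists were not used here. Each mouse list was called jointly over its libraries and gives 1 fold enrichment over IgG per peak, so no spread between replicates exists, no difference between genes could be tested, and the read depth behind a peak is unknown.

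Proneural bHLH factors bind short DNA words called E-boxes as dimers with widely expressed E proteins, and Id proteins block them by taking up the E proteins. In the retina they act in waves: some mark progenitors that are about to leave the cell cycle, and others fix the identity of ganglion, horizontal, amacrine, bipolar, or photoreceptor cells. H3K4me3 marks promoters, H3K27ac marks active promoters and enhancers, and H3K4me1 covers enhancers and the flanks of promoters. Otx2 is a homeodomain factor of photoreceptor and bipolar cells, and Neurod1 is a bHLH factor of photoreceptor precursors and amacrine cells. The whole retina was profiled, so a peak present in fewer cells and a weaker peak in more cells cannot be told apart.

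The lists held 14069 H3K4me3 peaks, 62930 H3K27ac peaks, 135798 H3K4me1 peaks, 29115 Otx2 peaks, and 4744 Neurod1 peaks. Of these 246656 peaks, 209 lay in the 8 loci. As a check of the tissue, 5 of 5 retinal genes (*Pax6*, *Rax*, *Six3*, *Otx2*, *Crx*) had H3K4me3 and H3K27ac peaks at a TSS, and 0 of 5 genes of liver, muscle, blood, and endothelium (*Alb*, *Myod1*, *Cd3e*, *Ptprc*, *Pecam1*) had either.

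The DNA under a selection of strong factor peaks is shown first, because the results below turn on these elements. Each window of 300 bases was centred on the summit of a peak and read from GRCm38 in the direction of transcription of the gene, and capitals mark TAATCC, the word preferred by Otx2 and its relatives, and CAGATG or CAGCTG, E-boxes, on either strand. The first group holds the 4 elements of the *Neurod4* locus at which Otx2, Neurod1, and H3K27ac peaks coincided, centred on the Otx2 summits.

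*Neurod4*, 8.1 kb upstream (chr10:130288212-130288511, minus strand, intergenic): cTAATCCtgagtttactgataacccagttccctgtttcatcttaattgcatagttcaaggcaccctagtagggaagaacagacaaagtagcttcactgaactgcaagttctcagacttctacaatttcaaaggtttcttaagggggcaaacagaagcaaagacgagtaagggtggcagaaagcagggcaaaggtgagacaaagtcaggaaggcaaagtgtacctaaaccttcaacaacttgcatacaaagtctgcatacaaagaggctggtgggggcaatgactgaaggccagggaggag

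*Neurod4*, 1.9 kb upstream (chr10:130281971-130282270, minus strand, intergenic): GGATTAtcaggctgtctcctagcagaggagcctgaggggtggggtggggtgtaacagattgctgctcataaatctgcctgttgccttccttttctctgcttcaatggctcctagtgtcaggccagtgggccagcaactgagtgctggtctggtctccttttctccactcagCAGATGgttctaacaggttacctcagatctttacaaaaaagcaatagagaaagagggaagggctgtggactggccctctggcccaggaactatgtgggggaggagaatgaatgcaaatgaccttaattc

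*Neurod4*, 17.0 kb downstream of the start (chr10:130263054-130263353, minus strand, intergenic): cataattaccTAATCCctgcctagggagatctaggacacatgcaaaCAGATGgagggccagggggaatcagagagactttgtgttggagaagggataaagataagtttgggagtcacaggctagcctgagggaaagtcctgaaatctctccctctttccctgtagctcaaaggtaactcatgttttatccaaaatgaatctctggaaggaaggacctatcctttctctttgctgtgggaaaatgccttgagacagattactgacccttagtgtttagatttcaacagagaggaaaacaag

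*Neurod4*, 35.8 kb downstream of the start (chr10:130244330-130244629, minus strand, intergenic): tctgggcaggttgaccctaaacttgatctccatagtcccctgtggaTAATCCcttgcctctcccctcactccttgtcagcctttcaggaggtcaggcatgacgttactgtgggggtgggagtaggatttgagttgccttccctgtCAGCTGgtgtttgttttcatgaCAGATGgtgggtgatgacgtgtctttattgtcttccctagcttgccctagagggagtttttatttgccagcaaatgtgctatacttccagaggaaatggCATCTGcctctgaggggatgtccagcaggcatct

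All 4 windows held TAATCC and 3 of the 4 held CAGATG. The second group holds the strongest Otx2 peak of the *Atoh7*, *Olig2*, and *Ptf1a* loci and the strongest Neurod1 peak of the *Neurod2* locus, which lie on H3K4me1 with no H3K27ac peak.

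*Atoh7*, 1.3 kb upstream (chr10:63098193-63098492, plus strand, reaching into the exon of the predicted gene *Gm38063*): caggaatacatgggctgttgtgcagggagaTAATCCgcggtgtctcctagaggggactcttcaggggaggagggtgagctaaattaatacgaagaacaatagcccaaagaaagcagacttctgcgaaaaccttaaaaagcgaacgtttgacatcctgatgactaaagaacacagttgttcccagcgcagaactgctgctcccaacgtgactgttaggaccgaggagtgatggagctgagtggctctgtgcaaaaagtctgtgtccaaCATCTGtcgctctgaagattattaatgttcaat

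*Olig2*, 19.0 kb upstream (chr16:91206328-91206627, plus strand, intergenic): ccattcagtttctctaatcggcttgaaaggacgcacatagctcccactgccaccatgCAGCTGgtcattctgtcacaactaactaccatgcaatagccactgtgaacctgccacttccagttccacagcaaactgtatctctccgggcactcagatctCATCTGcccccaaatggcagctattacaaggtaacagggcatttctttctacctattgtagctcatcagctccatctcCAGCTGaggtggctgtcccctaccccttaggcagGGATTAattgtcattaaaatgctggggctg

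*Ptf1a*, 2.8 kb downstream of the start (chr2:19448272-19448571, plus strand, intergenic): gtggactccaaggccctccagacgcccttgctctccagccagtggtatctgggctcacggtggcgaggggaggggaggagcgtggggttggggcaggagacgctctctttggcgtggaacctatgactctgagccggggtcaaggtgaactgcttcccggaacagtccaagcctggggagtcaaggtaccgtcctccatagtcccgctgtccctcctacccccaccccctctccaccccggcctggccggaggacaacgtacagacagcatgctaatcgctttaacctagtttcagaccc

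*Neurod2*, 44.9 kb downstream of the start (chr11:98284573-98284872, minus strand, intergenic): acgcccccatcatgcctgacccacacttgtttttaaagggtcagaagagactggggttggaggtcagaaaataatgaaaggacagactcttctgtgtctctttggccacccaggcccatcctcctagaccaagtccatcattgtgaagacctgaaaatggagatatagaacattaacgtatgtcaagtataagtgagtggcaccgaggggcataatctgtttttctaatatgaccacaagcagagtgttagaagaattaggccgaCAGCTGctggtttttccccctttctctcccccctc

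The *Atoh7* window held 1 TAATCC and 1 CAGATG, the *Olig2* window held 1 TAATCC, 1 CAGATG, and 2 CAGCTG, and the *Neurod2* window held 1 CAGCTG. The *Ptf1a* window, under the second strongest Otx2 peak of the 8 loci, held 0 of the 3 words. The strongest factor peaks of *Bhlhe22* (Otx2, 8.42-fold), *Neurog2* (Otx2, 5.10-fold), and *Neurod6* (Neurod1, 3.79-fold) are not printed. Their windows held 0 TAATCC, with 1 CAGATG at *Bhlhe22* and 1 CAGCTG at *Neurod6*. Across the 53 Otx2 peaks of the 8 loci, TAATCC was found in 10 windows of 300 bases (18.9%), against 18.2% of all Otx2 peaks. CAGATG was found in 9 of the 18 Neurod1 windows (50%), against 52.1% of all Neurod1 peaks, and CAGCTG in 6 of 18 (33.3%), against 39.8%. TAATCC was found in 6 of the 18 Neurod1 windows (33.3%), against 14.2% of the whole Neurod1 list. No word is part of another, a match is not a test of binding, and windows of neighbouring Otx2 and Neurod1 peaks share bases.

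At their promoters, H3K4me1 peaks were found at all 8 genes, beside 63.6% of all protein-coding genes, and H3K4me3 peaks at all but *Neurod6*, beside 56.0%. H3K27ac peaks were found at *Atoh7* and *Neurod4*, beside 22.6% of all genes, and Otx2 peaks at 5 members, beside 51.0%, and both counts were close to the background. Neurod1 peaks were found at 2 members, beside 5.76%. The H3K4me3 enrichment of 5 of the 7 members with a peak was below the median of marked genes, and that of H3K4me1 was above it in 7 of 8.

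H3K4me3 peaks lay within 1 kb of a TSS in 7 of 8 members, beside 56.0% of all protein-coding genes. In order of fold enrichment over IgG, the highest peak was 35.3-fold at *Bhlhe22*, 23.8-fold at *Neurod4*, 15.0-fold at *Olig2*, 12.5-fold at *Neurog2*, 9.22-fold at *Atoh7*, 6.81-fold at *Neurod2*, and 5.23-fold at *Ptf1a*. The median of these 7 values was 12.5-fold, and that of all genes with such a peak was 17.5-fold. *Bhlhe22* and *Neurod4* were above the median of all genes and the other five were below it. At *Ptf1a*, 90.8% of the genes with a peak had an enrichment at least as high, and its peak began inside the gene, did not cover the TSS, and had its summit 1289 bp downstream. The *Neurod4* peak was 5328 bp wide, a width reached by 0.853% of the H3K4me3 list. Neighbours in this order cannot be said to differ, since a pooled value has no error.

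**Figure D1:**
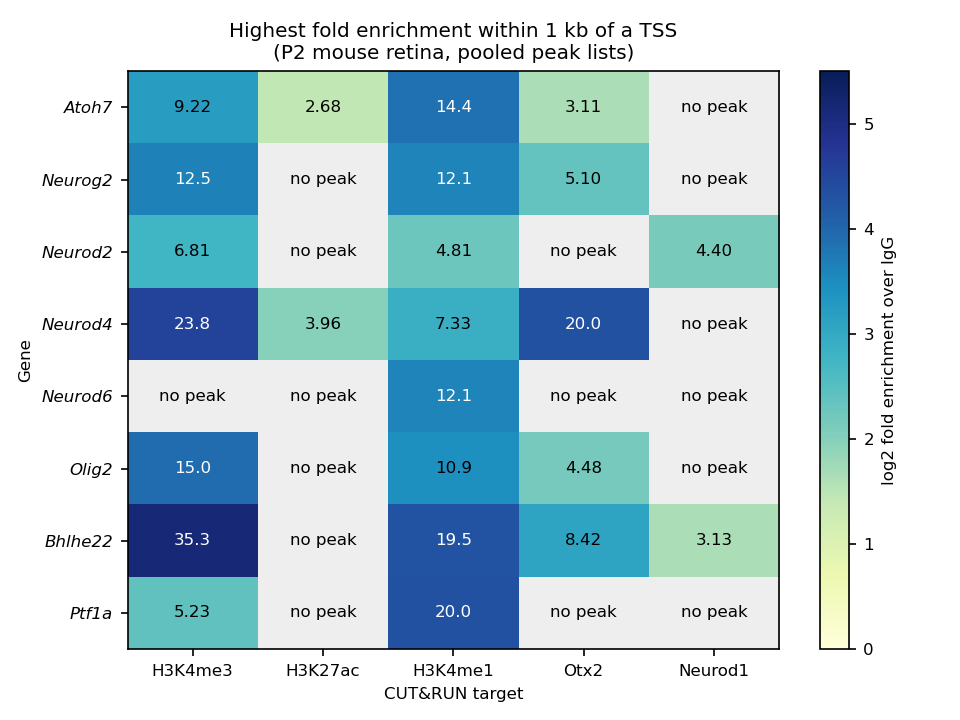
Highest fold enrichment over IgG of a peak within 1 kb of a TSS for the 8 genes (rows) and 5 CUT&RUN targets (columns), coloured on a log2 scale with the linear value printed, and grey where the list holds no peak. H3K4me1 was present at all 8 genes and H3K27ac at 2, and the values are those of the peak summits, which for H3K4me1 lay over 1 kb from the TSS at all genes but *Neurod6*, for H3K4me3 at *Ptf1a*, and for Otx2 at *Neurod4* (1881 bp upstream).

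H3K27ac peaks lay at the TSS of 2 of 8 members, beside 22.6% of all genes. The peak at *Neurod4* was 3.96-fold enriched with a −log10 q of 6.86, and that at *Atoh7* was 2.68-fold with a −log10 q of 2.28, so *Atoh7* had none at a −log10 q of at least 5. The median of all genes with such a peak was 3.58-fold. Read together, the marks gave 3 kinds of promoter. *Atoh7* and *Neurod4* had all 3 marks, as did 19.9% of genes. *Neurog2*, *Neurod2*, *Olig2*, *Bhlhe22*, and *Ptf1a* had H3K4me3 and H3K4me1 without H3K27ac, as did 31.6% of genes. *Neurod6* had H3K4me1 alone, as did 10.6% of genes. H3K27me3, the Polycomb mark often found with H3K4me3 at silent developmental genes, was not analysed here.

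H3K4me1 peaks lay at the TSS of all 8 members, beside 63.6% of all genes. Their enrichment was 20.0-fold at *Ptf1a*, 19.5-fold at *Bhlhe22*, 14.4-fold at *Atoh7*, 12.1-fold at both *Neurog2* and *Neurod6*, 10.9-fold at *Olig2*, 7.33-fold at *Neurod4*, and 4.81-fold at *Neurod2*. The median was 12.1-fold, against 5.64-fold for all genes with such a peak, and *Neurod2* was the one member below the latter. These values are those of the summits, and 7 of the 8 summits lay outside the 1 kb window, from 1322 bp (*Neurog2*) to 3435 bp (*Ptf1a*) from the TSS, with *Neurod6* at 611 bp as the exception. Such peaks reached the promoter as parts of wider domains, and the values of all genes were taken in the same way. The peak across *Ptf1a* was 12888 bp wide and that across *Olig2* 10387 bp, widths reached by 0.143% and 0.323% of the H3K4me1 list. Neither the H3K4me3 nor the H3K4me1 value of *Ptf1a* was measured within 1 kb of its TSS.

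Otx2 peaks lay at the TSS of 5 of 8 members, beside 51.0% of all genes, so this count was close to the background. They were 8.42-fold enriched at *Bhlhe22* with the summit 31 bp upstream, 5.10-fold at *Neurog2*, 4.48-fold at *Olig2*, and 3.11-fold at *Atoh7*. At *Neurod4*, a peak of 3.63-fold lay 253 bp upstream, and the 20.0-fold peak at −1881 bp reached into the 1 kb window by its edge. That peak ranked 55th of 29115 in the Otx2 list. No Otx2 peak lay at the TSS of *Neurod2*, *Neurod6*, or *Ptf1a*.

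Neurod1 peaks lay at the TSS of 2 of 8 members, beside 5.76% of all genes. The peak at *Neurod2* was 4.40-fold enriched (−log10 q of 10.3, summit at +66 bp) and that at *Bhlhe22* 3.13-fold (−log10 q of 4.89, summit at +104 bp), so *Bhlhe22* had none at a −log10 q of at least 5. With the window widened to 2 kb, *Atoh7*, *Neurod4*, and *Olig2* had one too. An Otx2 peak was also found at the TSS of *Bhlhe22* and none at that of *Neurod2*.

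Because 7 of the members have a single annotated TSS and the median protein-coding gene has 3, the counts were also taken at the gene start alone. The members' counts were the same 7, 2, 8, 5, and 2 for H3K4me3, H3K27ac, H3K4me1, Otx2, and Neurod1, beside 52.7%, 15.8%, 57.6%, 47.0%, and 4.23% of all genes.

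The same values were read at the promoters of partners and inhibitors of the family. H3K4me3 peaks were found at 3 of 3 E-protein genes (*Tcf3*, *Tcf4*, *Tcf12*), at 36.3-fold to 46.0-fold, and at 4 of 4 Id genes (*Id1* to *Id4*), at 27.6-fold to 42.2-fold. All 7 members with an H3K4me3 peak were below the 3 E-protein genes, and 6 of them were below the 4 Id genes, while *Bhlhe22* at 35.3-fold was above *Id2* (33.3-fold) and *Id4* (27.6-fold). The 5 retinal marker genes were at 46.3-fold to 159-fold. Otx2 peaks lay at 3 of 3 E-protein and 4 of 4 Id promoters, and a Neurod1 peak at *Tcf4* alone, at 7.71-fold. That Neurod1 peak lay at an internal TSS, with its summit 156133 bp downstream of the gene start. Values are the highest over all annotated TSSs of a gene, and most members have a single one. Among 8 other neuronal-class bHLH genes (*Neurog1*, *Neurog3*, *Atoh1*, *Olig1*, *Olig3*, *Bhlhe23*, *Nhlh1*, *Nhlh2*), H3K4me3 was found at 2, *Nhlh2* (15.0-fold) and *Olig3* (3.06-fold), H3K27ac at 2, H3K4me1 at 7, Otx2 at 1, and Neurod1 at 0. *Atoh1*, a factor of hair cells and cerebellar granule neurons, had H3K4me1 at 23.8-fold and no other peak. These lists hold few genes and their differences were not tested.

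**Figure D2:**
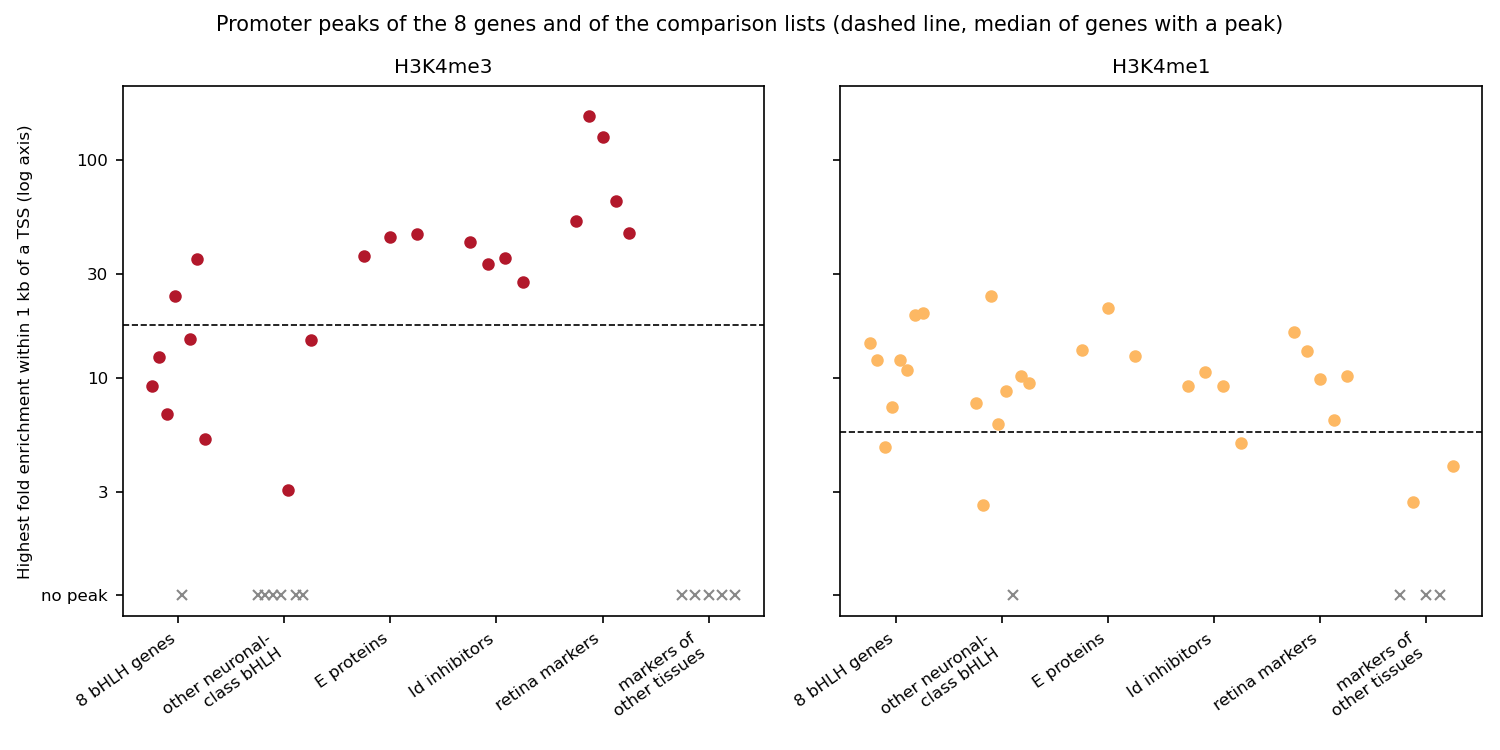
Highest H3K4me3 (left) and H3K4me1 (right) fold enrichment within 1 kb of a TSS on a log axis, 1 point per gene, for the 8 bHLH genes and 5 comparison lists, with crosses for genes without a peak and a dashed line at the median of all genes with one (17.5-fold and 5.64-fold). For H3K4me3 the 7 genes with a peak lie below the E proteins and retina markers, and all but *Bhlhe22* at 35.3-fold below the Id genes. For H3K4me1 the 8 genes lie within the joint range of the E proteins, Id genes, and retina markers, apart from *Neurod2* at 4.81-fold, which is below it.

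In the gene body plus 50 kb, the 8 loci held 17 H3K4me3, 25 H3K27ac, 96 H3K4me1, 53 Otx2, and 18 Neurod1 peaks. H3K4me3 peaks were found in 7 loci (all but *Neurod6*), H3K27ac in 7 (all but *Ptf1a*), H3K4me1 and Otx2 in 8, and Neurod1 in 7 (all but *Neurog2*). Beside these, 74.0%, 68.5%, 86.4%, 78.0%, and 29.0% of all genes had at least 1 such peak for H3K4me3, H3K27ac, H3K4me1, Otx2, and Neurod1. The median fold enrichment in the loci was 5.66 for H3K4me3, 3.51 for H3K27ac, 6.83 for H3K4me1, 3.67 for Otx2, and 4.21 for Neurod1, against 13.5, 3.36, 4.25, 3.54, and 3.78 over the whole lists.

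**Figure D3:**
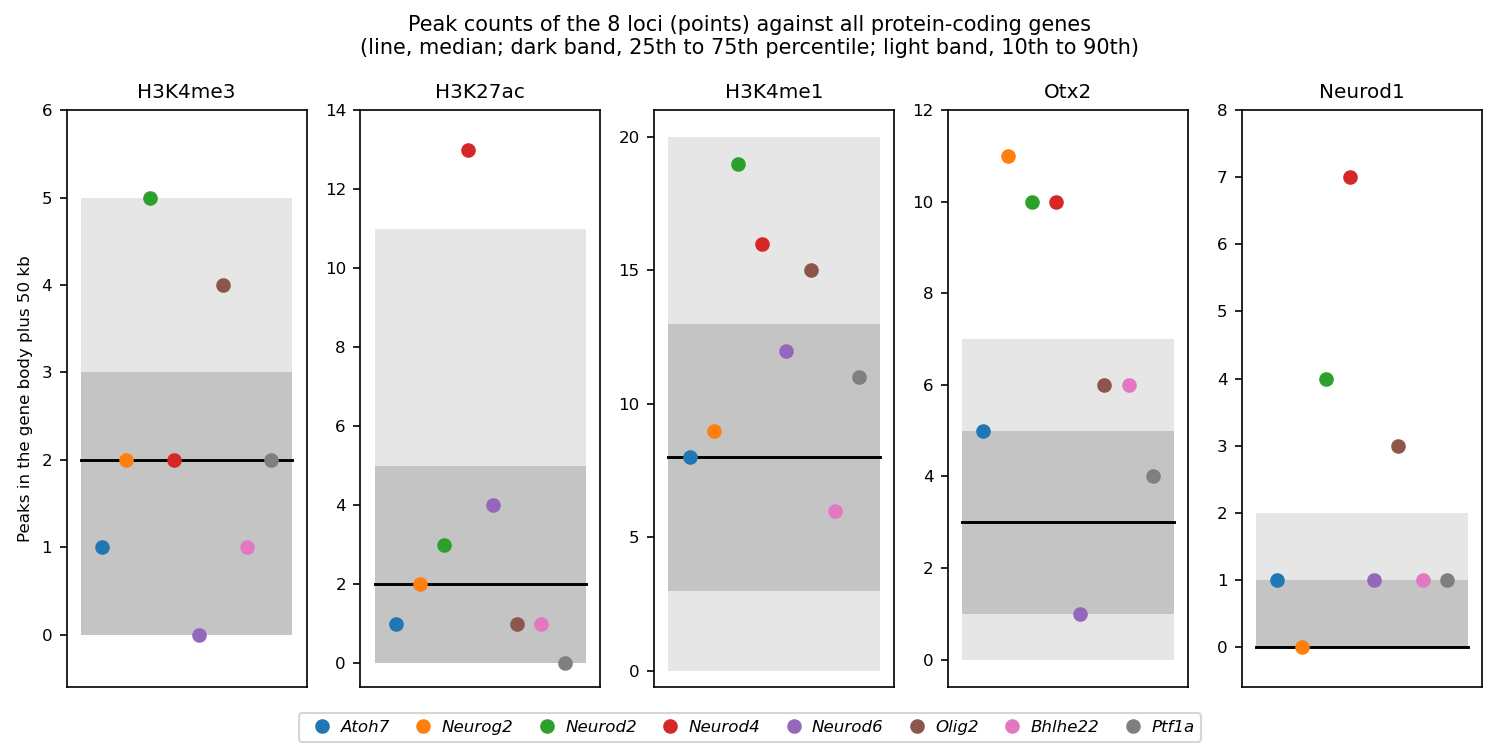
Number of peaks in the gene body plus 50 kb for the 8 genes (coloured points) and 5 targets, over the median (line), the 25th to 75th percentile (dark band), and the 10th to 90th percentile (light band) of all 21938 protein-coding genes. *Neurod4* with 13 H3K27ac and 7 Neurod1 peaks, and *Neurog2*, *Neurod2*, and *Neurod4* with 10 or 11 Otx2 peaks, lie above the light bands, as do *Neurod2* with 4 and *Olig2* with 3 Neurod1 peaks.

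*Neurod4*, which acts with related factors in bipolar and amacrine cell genesis, spans chr10:130268152-130280240 on the minus strand. Its locus held 13 of the 25 H3K27ac peaks and 7 of the 18 Neurod1 peaks. At least 13 H3K27ac peaks were found at 7.60% of all genes, and at least 7 Neurod1 peaks at 0.406%, where the medians were 2 and 0. It also held 10 Otx2 peaks, as many as or more than 96.9% of genes, and 57634 bp of H3K4me1, a cover reached by 2.09% of genes. Not all of these peaks were nearest to *Neurod4*. The Neurod1 peaks 35.9, 48.1, and 50.6 kb downstream of the start were nearer to a TSS of *Olfr827*, and that 34.6 kb upstream to one of *Tespa1*. The Otx2 peaks 35.8, 41.1, 50.3, and 51.7 kb downstream were also nearer to *Olfr827*. The annotated neighbour *Tespa1* had no peak of the 5 targets at its TSS.

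Otx2, Neurod1, and H3K27ac coincided without H3K4me3 at 4 places around *Neurod4*, the elements printed first above. At 1.9 kb upstream, Otx2 was 20.0-fold enriched, Neurod1 6.91-fold, and H3K27ac 4.41-fold. At 8.1 kb upstream the values were 6.02-fold, 4.71-fold, and 3.34-fold in the same order. At 17.0 kb downstream of the start they were 8.46-fold, 4.01-fold, and 5.77-fold, and at 35.8 kb 6.87-fold, 5.86-fold, and 4.86-fold. The Otx2 and Neurod1 summits of an element lay 3 to 120 bp apart. Such elements were found in 1 of the 8 loci, beside 10.3% of all genes, and 70 genes (0.319%) had at least 4. A further Neurod1 peak of 5.10-fold lay 34.6 kb upstream on H3K4me1 alone, nearer to the *Tespa1* start, and the element at 35.8 kb was nearer to the olfactory receptor gene *Olfr827* than to *Neurod4*.

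**Figure D4:**
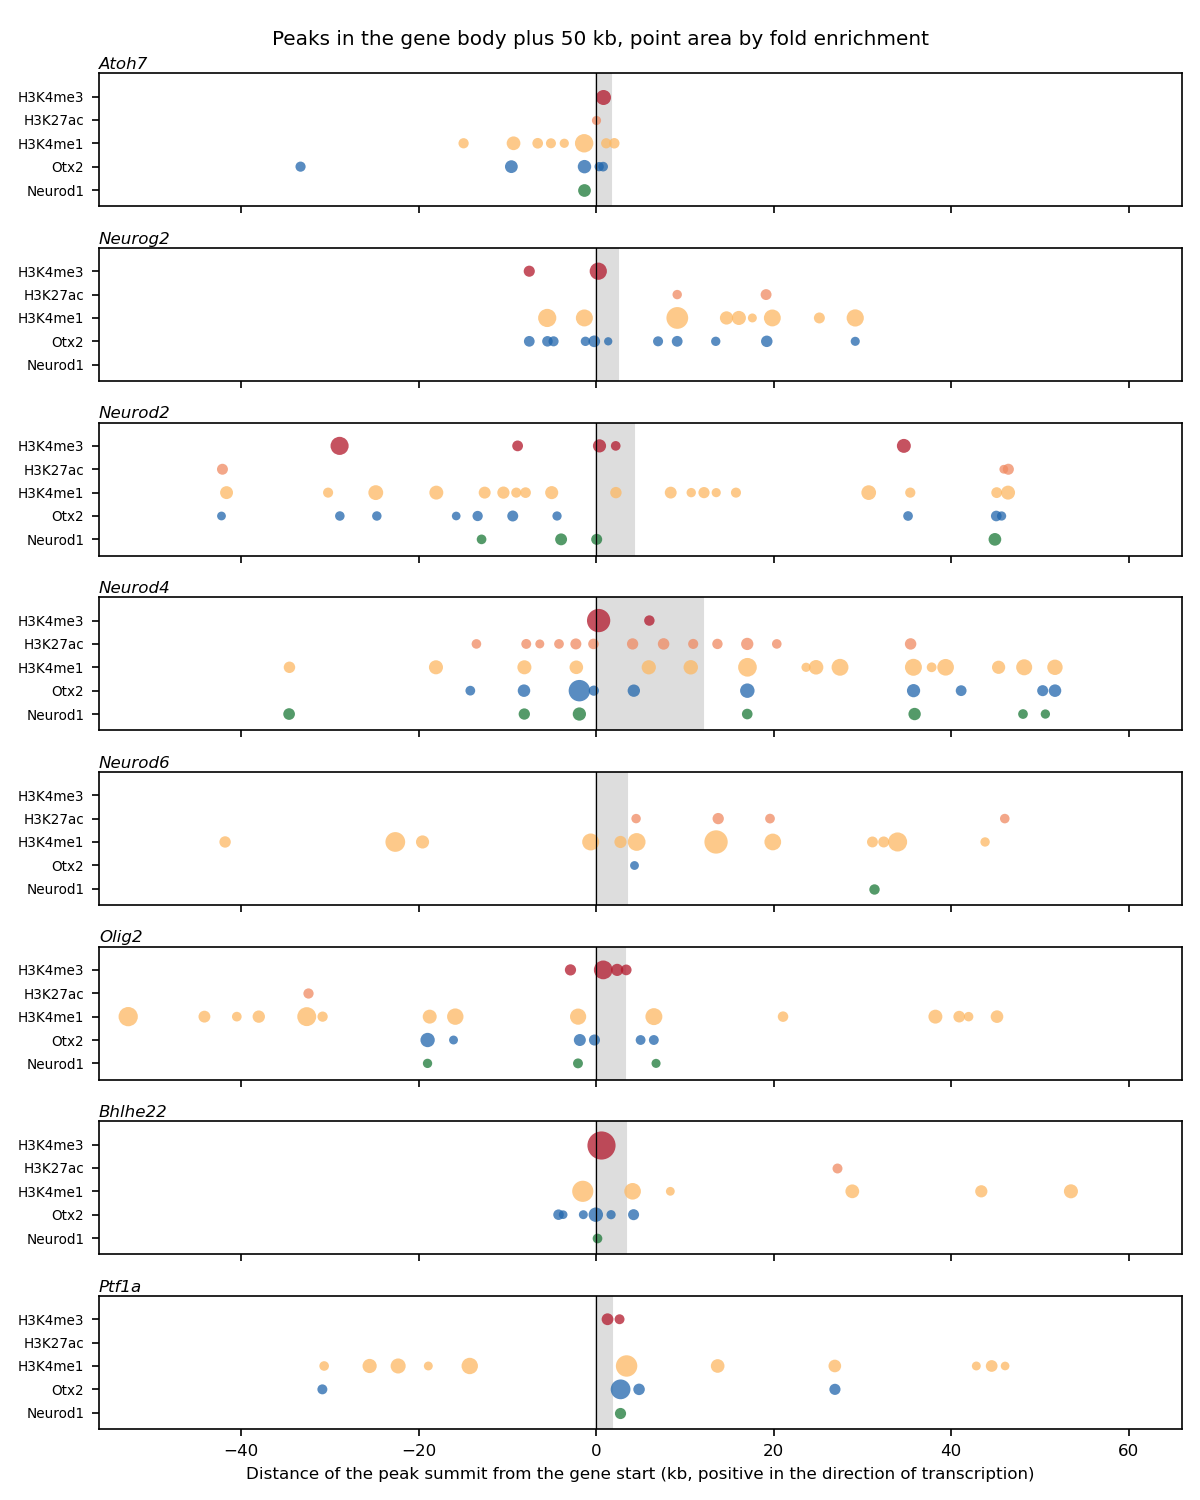
Peak summits by distance from the gene start (kb, positive in the direction of transcription) in the gene body plus 50 kb of the 8 genes, with 1 row per target, point area by fold enrichment, and grey for the gene body. H3K27ac, Otx2, and Neurod1 points line up at 4 places around *Neurod4*, *Neurog2* shows 11 Otx2 points and no Neurod1 point, and *Ptf1a* shows no H3K27ac point.

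*Neurog2*, expressed in neurogenic progenitors, spans chr3:127633135-127635631 on the plus strand. It had the most Otx2 peaks of the 8 loci, 11, a number reached by 3.10% of genes, and 0 Neurod1 peaks, as in 71.0% of genes. Its Otx2 enrichment was modest throughout, from 1.97-fold to 5.10-fold, and the strongest peak was the one at the promoter. Otx2 and H3K27ac coincided 9.1 kb downstream of the start (4.19-fold and 2.89-fold) and 19.2 kb downstream (4.90-fold and 4.28-fold), and the former lay in an H3K4me1 domain of 8558 bp enriched 20.6-fold. A small H3K4me3 peak of 4.52-fold lay 7.5 kb upstream, also under Otx2. Of its neighbours, *Zgrf1* and *Alpk1* have Otx2 peaks at their own promoters (4.09-fold and 3.85-fold), both outside the window.

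*Atoh7*, required for retinal ganglion cells, spans chr10:63099651-63101279 on the plus strand. The locus was compact, with 1 H3K4me3, 1 H3K27ac, 8 H3K4me1, 5 Otx2, and 1 Neurod1 peak. Its strongest factor peaks did not lie at the TSS. Otx2 was 7.13-fold enriched at −1308 bp, Neurod1 6.29-fold at −1339 bp, and a second Otx2 peak of 6.35-fold lay 9.5 kb upstream. Each of these 3 peaks lay on H3K4me1 with neither H3K4me3 nor H3K27ac. The neighbour *Pbld2* carried H3K4me3 at 49.2-fold and H3K27ac at 3.60-fold at its own promoter, outside the window.

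*Olig2*, a neurogenic bHLH factor of retinal progenitors, spans chr16:91225457-91228677 on the plus strand. It had 6 Otx2 and 3 Neurod1 peaks, and all 3 Neurod1 peaks overlapped an Otx2 peak. At least 3 Neurod1 peaks were found at 5.04% of genes. The strongest pair lay 19.0 kb upstream, with Otx2 at 8.27-fold and Neurod1 at 2.81-fold on H3K4me1 alone. A second lay 1831 bp upstream, with Otx2 at 5.44-fold and Neurod1 at 3.32-fold over an H3K4me3 peak of 4.62-fold, and the third at 6.5 kb downstream of the start, with 3.32-fold and 2.60-fold. The 1 H3K27ac peak of the locus (3.65-fold) lay 32.5 kb upstream and overlapped no factor peak. The adjacent paralog *Olig1*, 44315 bp downstream, had H3K4me1 at 6.15-fold at its TSS and none of the other 4 targets.

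*Bhlhe22*, which acts in amacrine and bipolar cells, spans chr3:18054174-18057517 on the plus strand. Its 6 Otx2 peaks lay from 4232 bp upstream to 4223 bp downstream of the start, and the other 5 were between 2.27-fold and 4.42-fold beside the 8.42-fold promoter peak. The 1 Neurod1 peak was the one at the promoter, and the 1 H3K27ac peak (3.36-fold) lay 27.1 kb downstream in an intron of *Cyp7b1* and overlapped neither factor.

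*Ptf1a*, which specifies horizontal and amacrine cells, spans chr2:19445663-19447501 on the plus strand. No H3K27ac peak was found in its locus, as in 31.5% of genes. The Otx2 peak 2759 bp downstream of the start was 16.8-fold enriched with a −log10 q of 195, ranked 97th in the Otx2 list, and overlapped a Neurod1 peak of 4.56-fold and an H3K4me3 peak of 3.36-fold inside the broad H3K4me1 domain. The other 3 Otx2 peaks, of 3.39-fold to 4.92-fold, lay on H3K4me1 alone. The neighbour *4921504E06Rik*, with its start outside the window, had H3K4me3 at 4.01-fold, H3K4me1 at 10.9-fold, and Otx2 at 6.97-fold at its TSS.

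*Neurod2* and *Neurod6*, which mark sets of amacrine cells in the retina, differed in the factors. *Neurod2* spans chr11:98325415-98329648 on the minus strand in a gene-rich window shared with *Cdk12*, *Ppp1r1b*, and *Stard3*, and the strongest H3K4me3 peak of the locus (13.9-fold) lay at the *Stard3* promoter. It had 10 Otx2 peaks, none above 4.35-fold, and 4 Neurod1 peaks, a number reached by 2.24% of genes. Of the Otx2 peaks, the one 4.4 kb upstream alone had *Neurod2* as the gene with the nearest coding TSS. The Neurod1 peaks were 6.23-fold enriched 44.9 kb downstream, 5.34-fold 3.9 kb upstream, 4.40-fold at the promoter, and 3.12-fold 12.9 kb upstream, and 3 of the 4 overlapped Otx2. The Neurod1 peaks 44.9 kb downstream and 12.9 kb upstream were nearer to a TSS of *Cdk12* and of *Ppp1r1b*. The 3 H3K27ac peaks of the *Neurod2* locus were distant, 42.1 kb upstream and 45.9 and 46.4 kb downstream of the start. They were nearer to a TSS of *Stard3* or *Cdk12*. *Neurod6* spans chr6:55677822-55681263 on the minus strand and had the fewest factor peaks of the 8 loci, 1 Otx2 peak of 2.39-fold 4.2 kb downstream of the start and 1 Neurod1 peak of 3.79-fold 31.3 kb downstream. It had no H3K4me3 peak, and yet 4 H3K27ac and 12 H3K4me1 peaks, of which the strongest pair lay about 13.5 kb downstream with H3K4me1 at 23.8-fold and H3K27ac at 4.70-fold, under neither factor.

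Sorted by the histone peaks they overlapped, 26 of the 53 Otx2 peaks lay on H3K4me1 alone (49.1%, 95% Wilson interval 36.1 to 62.1), against 26.9% of the whole Otx2 list. A further 15 (28.3%, 18.0 to 41.6) overlapped H3K4me3, against 43.3% of the list, 10 (18.9%, 10.6 to 31.4) overlapped H3K27ac without H3K4me3, against 22.6%, and 2 overlapped none of the marks. Of the 18 Neurod1 peaks, 10 lay on H3K4me1 alone (55.6%, 33.7 to 75.4), against 28.7% of the Neurod1 list, and 4 on H3K27ac without H3K4me3 (22.2%, 9.0 to 45.2), against 40.1%. All 4 of the latter were in the *Neurod4* locus. The intervals cover counting error alone and treat peaks of 1 locus as independent.

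**Figure D5:**
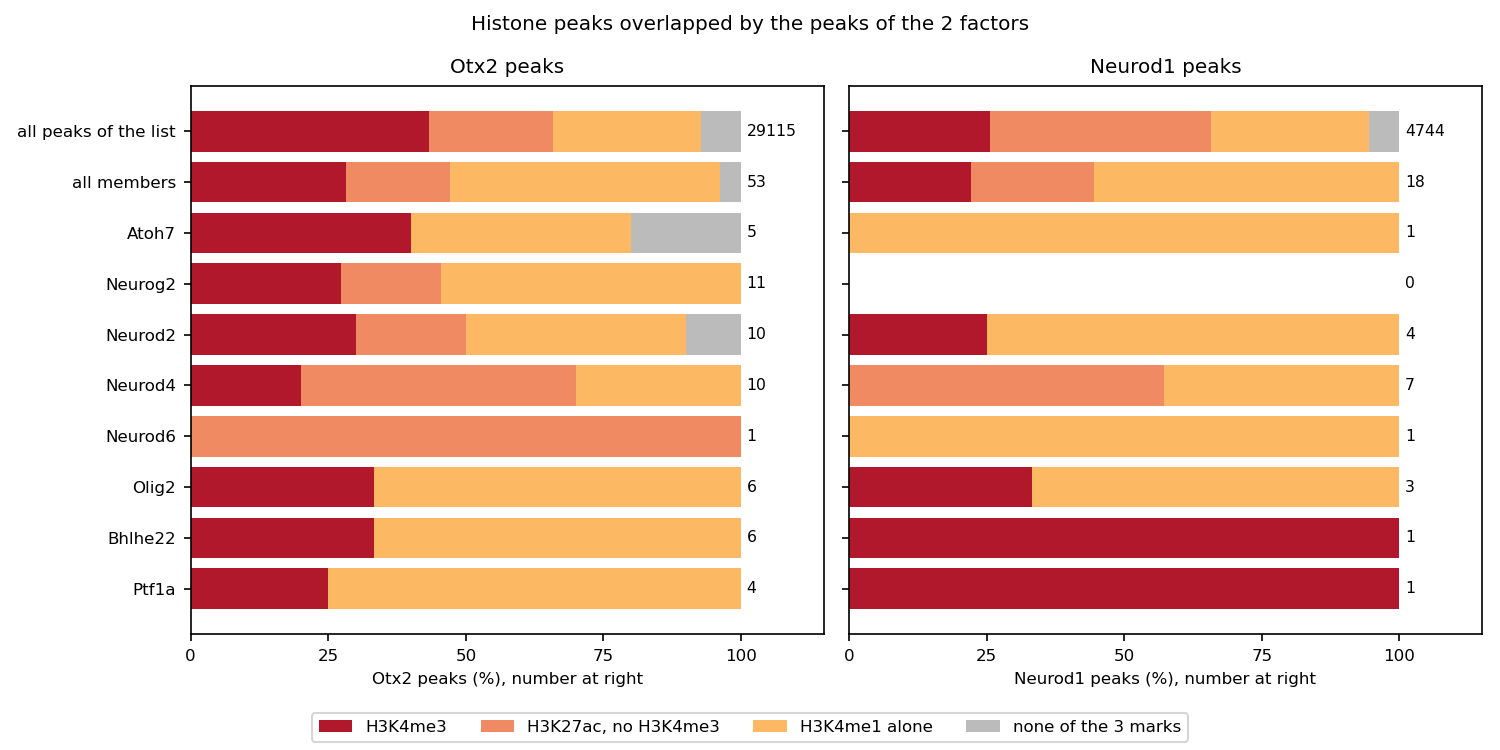
Share of Otx2 peaks (left) and Neurod1 peaks (right) that overlap H3K4me3, H3K27ac without H3K4me3, H3K4me1 alone, or none of the 3 marks, in percent, for the whole list, the 8 loci together, and each locus, with the number of peaks at the right of each bar. H3K4me1 alone makes up 49.1% of the Otx2 and 55.6% of the Neurod1 peaks of the loci, and H3K27ac without H3K4me3 is found under Neurod1 at *Neurod4* alone.

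Read from the side of the enhancer mark, 22 of the 25 H3K27ac peaks lacked H3K4me3. Otx2 overlapped 10 of these 22 (45.5%, 26.9 to 65.3), beside 11.0% of all such peaks of the list, and Neurod1 overlapped 4 (18.2%, 7.31 to 38.5), beside 3.20%. *Neurod4* held 11 of the 22. Without it, Otx2 overlapped 5 of 11 and Neurod1 0 of 11 (0%, 0 to 25.9). Otx2 thus overlapped such peaks at *Neurog2* (2 of 2), *Neurod2* (2 of 3), and *Neurod6* (1 of 4) as well, and Neurod1 did so at *Neurod4* alone. At *Neurod2* and *Neurod6*, each such pair held a peak with a −log10 q below 5. So did the *Neurog2* pair 9.1 kb downstream of the start, and the pair 19.2 kb downstream did not.

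Most Neurod1 peaks of the loci were shared with Otx2. Otx2 overlapped 14 of the 18 Neurod1 peaks (77.8%, 54.8 to 91.0), against 82.1% of the whole Neurod1 list. Neurod1 overlapped 14 of the 53 Otx2 peaks (26.4%, 16.4 to 39.6), against 13.1% of the whole Otx2 list. The 4 Neurod1 peaks without Otx2 were those at the *Neurod2* promoter, 34.6 kb upstream and 48.1 kb downstream of the start of *Neurod4*, and 31.3 kb downstream at *Neurod6*.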

How the data were processed

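CUT&RUN was performed on nuclei of pooled P2 mouse retinas. Per the submitters' notes, the authors trimmed reads with cutadapt 3.5 and Trim Galore 0.6.4, aligned them to GRCm38 with Bowtie2, dropped reads with a mapping quality of 30 or below with SAMtools 1.12, removed duplicates with UMI-tools ignoring molecular identifiers, and merged technical replicates. Peaks were called by the authors with macs2 jointly over the libraries of a target against IgG at a q-value of 0.05, without mitochondrial and blacklisted regions. The deposited value of each peak is a fold enrichment, the ratio of pooled signal to IgG at the summit, and its significance is the −log10 q given by the authors. Neither was rescaled.

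The members and the comparison lists were chosen with earlier results of these data known. Groups came from the sample labels, and 0 columns of other series were present. Peaks were assigned to GENCODE M21 genes by at least 1 bp of overlap in Python 3.11.15 with numpy 2.4.6 and pandas 2.3.3. Shares have 95% Wilson intervals from scipy 1.17.1, which cover counting error only, and plots were drawn with matplotlib 3.10.9. The overlap code was tested on simulated intervals against bedtools 2.31.1, with 0 differences. Words were searched in 300 bases around each factor summit. With 1 pooled list per target no test was made, and counts stand beside the share of all protein-coding genes. Named were all 8 members, all genes of the lists given (a further retinal marker is not reported here), at each TSS the strongest peak per target, in each locus the strongest Otx2 and the strongest Neurod1 peak, every place where Otx2, Neurod1, and H3K27ac coincide, and genes with a TSS in a locus whose promoter holds a peak. Other single peaks and neighbours were named after their values had been seen. The alternatives were TSS windows of 500 bp and 2 kb, coding TSSs, flanks of 25 and 100 kb, stricter q, fold, and overlap limits, summits inside H3K27ac, merged peaks, and peaks of other promoters left out.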

Additional observations from a re-analysis of the deposited data

How the results depend on the processing

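Of 72 alternatives to the 12 counts, 62 stayed within 1.5 times the reported count. At a −log10 q of at least 5, members with H3K27ac at a TSS numbered 1 (*Atoh7* lost), members with Neurod1 1 (*Bhlhe22* lost), H3K27ac peaks in the loci 11, and those without H3K4me3 under Otx2 5, and the cause was not tested. By construction, wider or narrower windows moved others: 5 members had Neurod1 within 2 kb of a TSS, the loci with 100 kb flanks held 39 H3K27ac and 155 H3K4me1 peaks, and with 25 kb flanks 63 H3K4me1 peaks. Without *Neurod4*, Otx2 overlapped 5 and Neurod1 0 H3K27ac peaks lacking H3K4me3. Leaving out *Neurod4*, counting at gene starts alone, and windows set from the gene start were chosen after seeing the data. No paired analysis was possible because each list pools its libraries, and no replicate could be left out. Depth is unknown, so a missing peak means that none was called, not that the mark or factor is absent.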

Other observations

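For members with TSS peaks of at least 4 targets, the genes most alike in their highest promoter enrichment were ranked by Euclidean distance over log2(1 + fold) of the 5 targets. For *Atoh7* these were *Gm6899* and *Vrk2* (distance 0.29 each, with identical values) and *Plxnd1* (0.29). For *Neurod4* they were *Riok2* (0.43), *Cep120* (0.58), and *Yju2* (0.71), all with Otx2 between 15.4-fold and 23.2-fold. For *Bhlhe22* they were *Ubl3* (0.32), *Cggbp1* (0.67), and *Cpeb4* (0.80), all with H3K4me3 above 30-fold, both factors, and no H3K27ac. These shared values follow from the ranking, which used them. For *Neurod4*, the Otx2 value ranked was that of the 20.0-fold peak with its summit at −1881 bp. None of the genes found alike is a bHLH gene.

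RefSeq promoter sequences of 300 bases (GRCm38.p6, from 250 bases before to 50 after the start) were matched for 7 of the 8 genes. *Bhlhe22*, the member with the highest H3K4me3 enrichment (35.3-fold), had no match. The ratio of observed to expected CpG was 0.815 at *Olig2*, 0.697 at *Neurod2*, 0.677 at *Ptf1a*, 0.570 at *Neurog2*, 0.455 at *Atoh7*, 0.318 and 0.197 at the 2 starts of *Neurod4*, and 0.192 at *Neurod6*, against a median of 0.384 over 32851 promoters. Among the 7 matched genes, *Neurod6*, the gene with no H3K4me3 peak, was the lowest, close to the second start of *Neurod4*. *Neurod4*, the second highest for H3K4me3 of all 8, was below the median.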
